A study of Mus musculus with 6 samples.

Results

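The macrophage genes of the newborn mouse lens samples were 34 genes that mark macrophages or the wider myeloid lineage. They were taken by gene symbol and not by a cut on their values, though earlier results of these data were known. Each was measured by the probe set annotated to that gene alone with the highest mean log2 signal, and all 34 had such a probe set among the 12393 genes of the arrays. RNA from Pax6 heterozygous lenses, which carried a Pax6lacZ allele beside a normal allele (Pax6lacZ/+, written Pax6+/- in the plots), was set against RNA from wild-type lenses on an NMRI background. Each genotype was represented by 3 mice at postnatal day 1, and each sample held the 2 lenses of a mouse, so that the lens with whatever tissue adhered to it was measured and not sorted cells. The labels number the samples 1 to 3 within each genotype and do not say what a number stands for. The values are microarray signals on a linear scale, normalized across arrays by the authors, and they carry no count or depth. The number of arrays, 6, limits the precision.

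Macrophages are phagocytes that take up dying cells, debris and matrix, and most of those resident in tissues need signalling through the receptor Csf1r to survive. In the developing eye they lie along the hyaloid vessels and the capillary net that wraps the lens before and shortly after birth, and they take part in the removal of these vessels. They are known by scavenger receptors, complement C1q, Fc receptors, lysosomal enzymes and chemokines, and their gene expression depends on the transcription factor PU.1, encoded by Spi1, which binds purine-rich sequences with a GGAA core. Several of the 34 genes are shared with other cells. Pf4 is a platelet chemokine, Lyve1 also marks lymphatic endothelium, Coro1a, Cd52, Cd53 and Ptprc are found across leukocytes, and Ccl2 is made by many cell types.

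The letters GAGGAA, a short form of the PU.1 site, stood on one strand or the other within the 250 bases before the first listed transcription start in 16 of the 24 macrophage genes that had a promoter in the RefSeq table (66.7%), against 6252 of 27025 genes overall (23.1%). The longer form GAGGAAGT, which contains the shorter, was found in 2 of the 24 (8.33%), C1qc and Pf4, and in 660 of the 27025 (2.44%). A match to these letters is a description of the sequence and no evidence of binding. The 100 bases before the start are shown for 5 macrophage genes that had a median signal of at least 50 and carry the letters close to the start, and for Coro1a, also above 50, which does not carry them. They are from RefSeq, build GRCm38.p6, written 5′ to 3′ along the strand of the gene, and capitals mark GAGGAA or its reverse complement TTCCTC.
C1qb, chr4:136886201-136886300, minus strand: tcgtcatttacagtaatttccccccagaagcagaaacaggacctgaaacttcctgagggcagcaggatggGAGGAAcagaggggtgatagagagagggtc
F13a1, chr13:37050245-37050344, minus strand: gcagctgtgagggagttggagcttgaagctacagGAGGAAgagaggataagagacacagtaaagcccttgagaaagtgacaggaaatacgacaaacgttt
Mrc1, chr2:14229314-14229413, plus strand: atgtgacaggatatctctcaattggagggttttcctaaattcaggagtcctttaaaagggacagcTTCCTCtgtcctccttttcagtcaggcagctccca
Cd53, chr3:106790150-106790249, minus strand: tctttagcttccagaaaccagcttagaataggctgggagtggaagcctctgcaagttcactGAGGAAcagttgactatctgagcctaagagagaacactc
Laptm5, chr4:130913216-130913315, plus strand: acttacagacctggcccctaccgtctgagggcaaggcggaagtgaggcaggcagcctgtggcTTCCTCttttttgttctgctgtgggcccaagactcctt
Coro1a, chr7:126704817-126704916, minus strand: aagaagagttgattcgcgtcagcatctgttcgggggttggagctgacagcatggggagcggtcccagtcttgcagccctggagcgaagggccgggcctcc

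The arrays had nearly the same median signal, from 21.4 to 22.8, and the median difference over all genes was −0.01 on the log2 scale. As a guide to background, the probe sets of 33 olfactory receptor genes reached at most 17.6. Pax6 itself, measured by a probe set whose place relative to the lacZ insertion is not given, read 942, 1170 and 882 in heterozygous replicates 1 to 3 and 1169, 1760 and 963 in wild-type replicates 1 to 3. It was lower in the heterozygous sample of every same-numbered pair, with overlapping groups (limma, adjusted p = 1.00). Of 17 lens fiber and epithelium genes, 16 exceeded the guide. Each probe set has its own affinity, so that signals are compared between samples and not between genes.

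Of the 34 macrophage genes, 24 exceeded the olfactory-receptor guide in at least 1 sample and 12 had a median signal of 50 or more. These 12 were Csf1r, Mrc1, Cd163, Lyve1, C1qb, F13a1, Ctss, Lyz2, Laptm5, Cd53, Coro1a and Pf4. The other 10 genes never exceeded the guide in any sample, namely Cx3cr1, Ptprc, Cd52, Itgam, Itgb2, Spi1, Trem2, Ccl3, Ccl4 and Cybb. The 12 genes with a median of 50 or more, together with Fcgr1 and Fcgr3, were above the guide in all 6 samples. The receptors Cx3cr1 and Trem2, the general leukocyte marker Ptprc, the integrins Itgam and Itgb2, and Spi1 were not above background. C1qa exceeded the guide only in heterozygous replicates 1 and 2 (42.8 and 30.5). Adgre1, another macrophage surface gene named here after its values were seen, did so only in heterozygous replicate 1 (18.4). The summed signal of the 34 genes was 4315, 2834 and 900 in heterozygous replicates 1 to 3 and 4016, 1379 and 1290 in wild-type replicates 1 to 3, which gave 2683 ± 1712 for the heterozygous and 2228 ± 1549 for the wild-type lenses (SD, n = 3 each). Replicate 1 had the highest sum in both genotypes and replicate 3 the lowest, though in wild-type lenses replicates 2 and 3 were close (1379 and 1290). In whole lenses, fewer macrophages and less RNA per macrophage cannot be told apart.

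**Figure D1:**
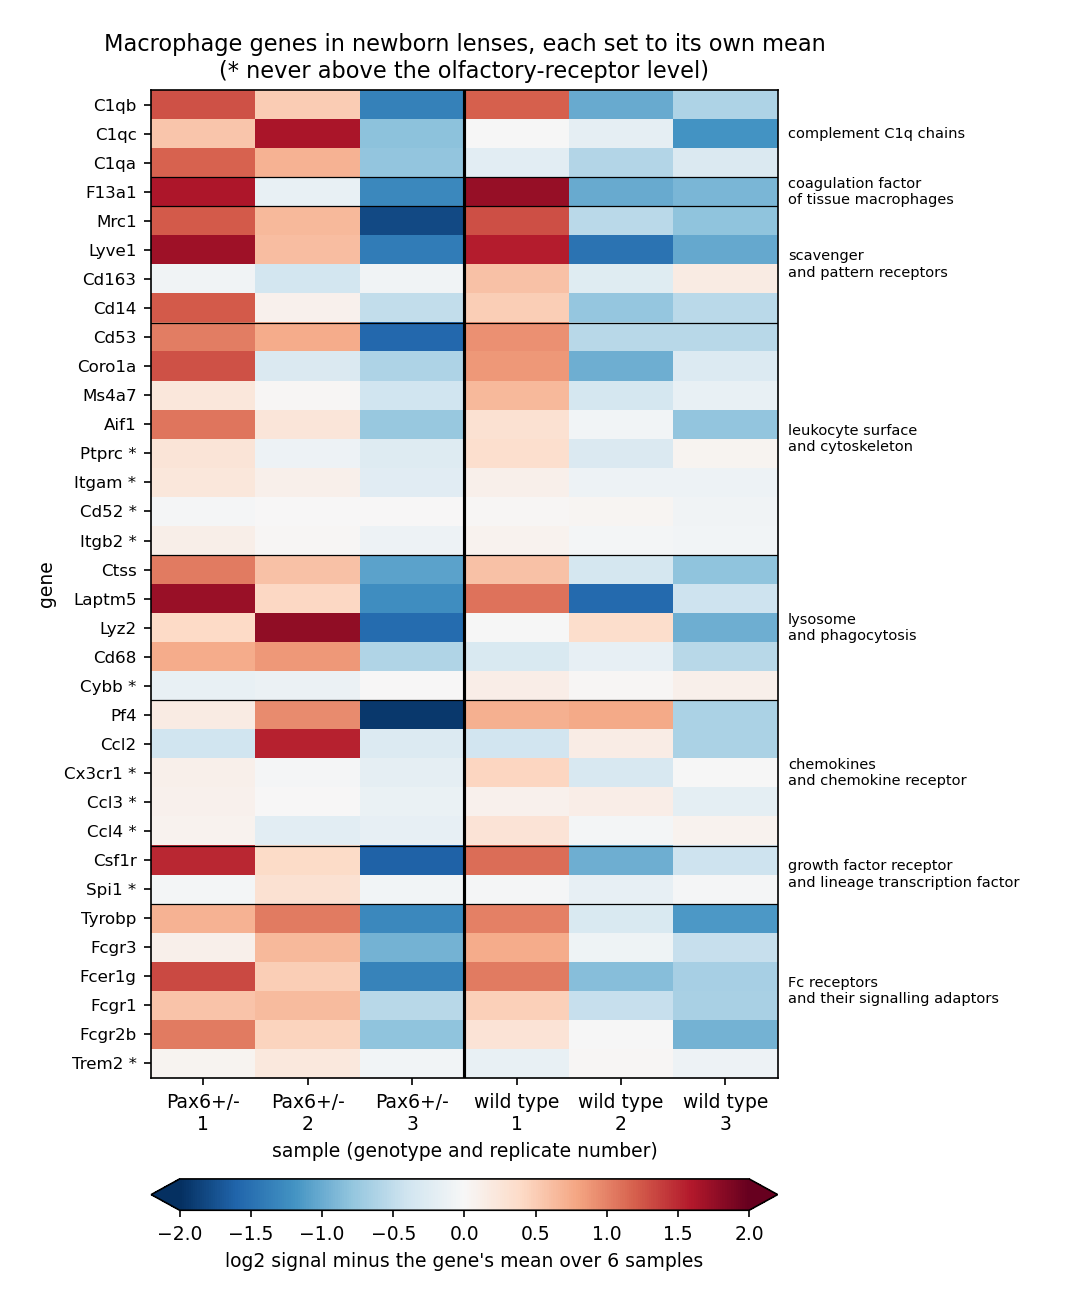
Heat map of the 34 macrophage genes (rows, grouped by role) over the 3 Pax6 heterozygous samples (left) and the 3 wild-type samples (right), as log2 signal minus the gene's mean over the 6 samples. Red marks higher and blue lower values, an asterisk marks the 10 genes that never exceeded the olfactory-receptor guide of 17.6, and replicate 1 is red in both genotypes for most other genes while heterozygous replicate 3 is the bluest column.

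Csf1r encodes the receptor for the growth factors CSF1 and IL-34. It read 343, 158 and 39.2 in heterozygous replicates 1 to 3 and 261, 61.3 and 91.1 in wild-type replicates 1 to 3. Replicate 1 was the highest in both genotypes and the groups overlapped, with a log2 difference of 0.18 ± 0.87 (SE, heterozygous minus wild-type). Spi1, the gene of PU.1, lay between 8.85 and 12.2 in all 6 samples, at background.

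The scavenger and pattern receptors were mostly of the same shape. Mrc1, the mannose receptor CD206 of resident macrophages, read 398, 264 and 48.4 in heterozygous replicates 1 to 3 and 412, 116 and 96.8 in wild-type replicates 1 to 3. Lyve1, a hyaluronan receptor of perivascular macrophages and lymphatic endothelium, read 241, 114 and 28.4 in heterozygous lenses and 222, 26.9 and 36.8 in wild-type lenses. In both genes replicate 1 was the highest sample of its genotype, and heterozygous replicate 2 was above wild-type replicate 2. Cd163, the receptor for hemoglobin-haptoglobin complexes, behaved differently, with 56.2, 45.7 and 56.6 in heterozygous lenses and 88.8, 50.2 and 65.9 in wild-type lenses. Its highest value was 1.94 times its lowest, the smallest spread of the 24 genes above the guide, and it was the only one of these 24 that was lower in the heterozygous sample of all 3 same-numbered pairs. Cd14, a co-receptor for bacterial lipopolysaccharide, was dim and reached at most 36.1.

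The complement C1q chains together form the recognition molecule that tags debris and synapses for uptake. C1qb read 557, 325 and 89.8 in heterozygous replicates 1 to 3 and 528, 114 and 149 in wild-type replicates 1 to 3. C1qa ranged from 10.9 to 42.8 and C1qc from 11.8 to 84.0, and these signals do not rank the chains. C1qc, named here after its values were seen, read 39.8, 84.0 and 15.3 in heterozygous lenses and 27.0, 23.8 and 11.8 in wild-type lenses. It was thus highest in heterozygous replicate 2, whereas C1qb and C1qa were highest in heterozygous replicate 1.

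F13a1, the A subunit of coagulation factor XIII and a gene of resident macrophages, read 840, 249 and 112 in heterozygous replicates 1 to 3 and 914, 137 and 146 in wild-type replicates 1 to 3. Replicate 1 of either genotype was more than any other sample, and the group means, 400 ± 387 in heterozygous and 399 ± 446 in wild-type lenses (SD, n = 3 each), were nearly equal.

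The lysosome and phagocytosis genes did not share a single order of samples. Ctss, the cysteine protease cathepsin S, read 253, 186 and 58.5 in heterozygous replicates 1 to 3 and 186, 97.0 and 70.8 in wild-type replicates 1 to 3. Laptm5, a lysosomal membrane protein of blood cells, read 317, 128 and 40.5 in heterozygous lenses and 203, 32.9 and 71.7 in wild-type lenses. Both were highest in replicate 1. Lyz2, the lysozyme of myeloid cells, read 92.5, 242 and 24.3 in heterozygous lenses and 70.4, 89.7 and 35.7 in wild-type lenses, with replicate 2 the highest in both genotypes. Cd68, a lysosomal glycoprotein, read 31.7, 34.9 and 12.6 in heterozygous lenses and 15.4, 17.1 and 13.02 in wild-type lenses. Every wild-type value of Cd68 was under the guide of 17.6, and heterozygous replicate 3 was the lowest of the 6 samples. Cybb, the catalytic subunit of the phagocyte NADPH oxidase, read 8.92, 9.07 and 9.93 in heterozygous lenses and 10.8, 9.98 and 10.6 in wild-type lenses. All 6 values of Cybb were at background, although the groups did not overlap.

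The Fc receptors, which bind antibody-coated particles, and their adaptors were of low signal. Fcgr2b, the inhibitory receptor, read 40.5, 26.8 and 11.2 in heterozygous replicates 1 to 3 and 23.7, 19.5 and 10.2 in wild-type replicates 1 to 3. The order of the replicates was the same in both genotypes, with 1 highest and 3 lowest. The activating receptors Fcgr1 and Fcgr3 ranged from 17.96 to 43.8 and from 24.3 to 78.1. The signalling adaptors Fcer1g and Tyrobp (DAP12) ranged from 12.9 to 81.9 and from 16.3 to 81.3, each with its lowest value in heterozygous replicate 3. Trem2, a lipid receptor that signals through Tyrobp, stayed between 12.4 and 15.9.

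Among leukocyte surface and cytoskeleton genes, the tetraspanin Cd53 read 275, 228 and 45.6 in heterozygous replicates 1 to 3 and 254, 92.8 and 92.5 in wild-type replicates 1 to 3. Coro1a, an actin-binding protein of leukocytes, read 224, 76.0 and 60.5 in heterozygous lenses and 170, 47.4 and 76.8 in wild-type lenses. Aif1, the calcium-binding protein IBA1 used to stain macrophages and microglia, read 31.8, 17.8 and 8.92 in heterozygous lenses and 18.6, 14.5 and 8.76 in wild-type lenses. All 3 genes were highest in replicate 1 of each genotype. Ms4a7 ranged from 13.4 to 27.6. Cd52, Itgam, Itgb2 and Ptprc, whose product CD45 is on all leukocytes, were confined to values from 8.44 to 17.4.

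Among the chemokines, Pf4 read 109, 186 and 25.5 in heterozygous replicates 1 to 3 and 159, 165 and 62.4 in wild-type replicates 1 to 3. Replicate 3 was the lowest of its genotype and heterozygous replicate 3 the lowest of all. Platelets are another source of Pf4. None of the 7 platelet and megakaryocyte genes measured exceeded the guide in any sample, and which cells gave the Pf4 signal was not tested. Ccl2, a monocyte attractant named here after its values were seen, read 12.6, 48.8 and 13.8 in heterozygous lenses and 12.8, 18.5 and 10.8 in wild-type lenses, so that only replicate 2 of either genotype was above the guide. Ccl3, Ccl4 and the chemokine receptor Cx3cr1, which marks microglia and monocytes, lay between 9.29 and 16.5.

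**Figure D2:**
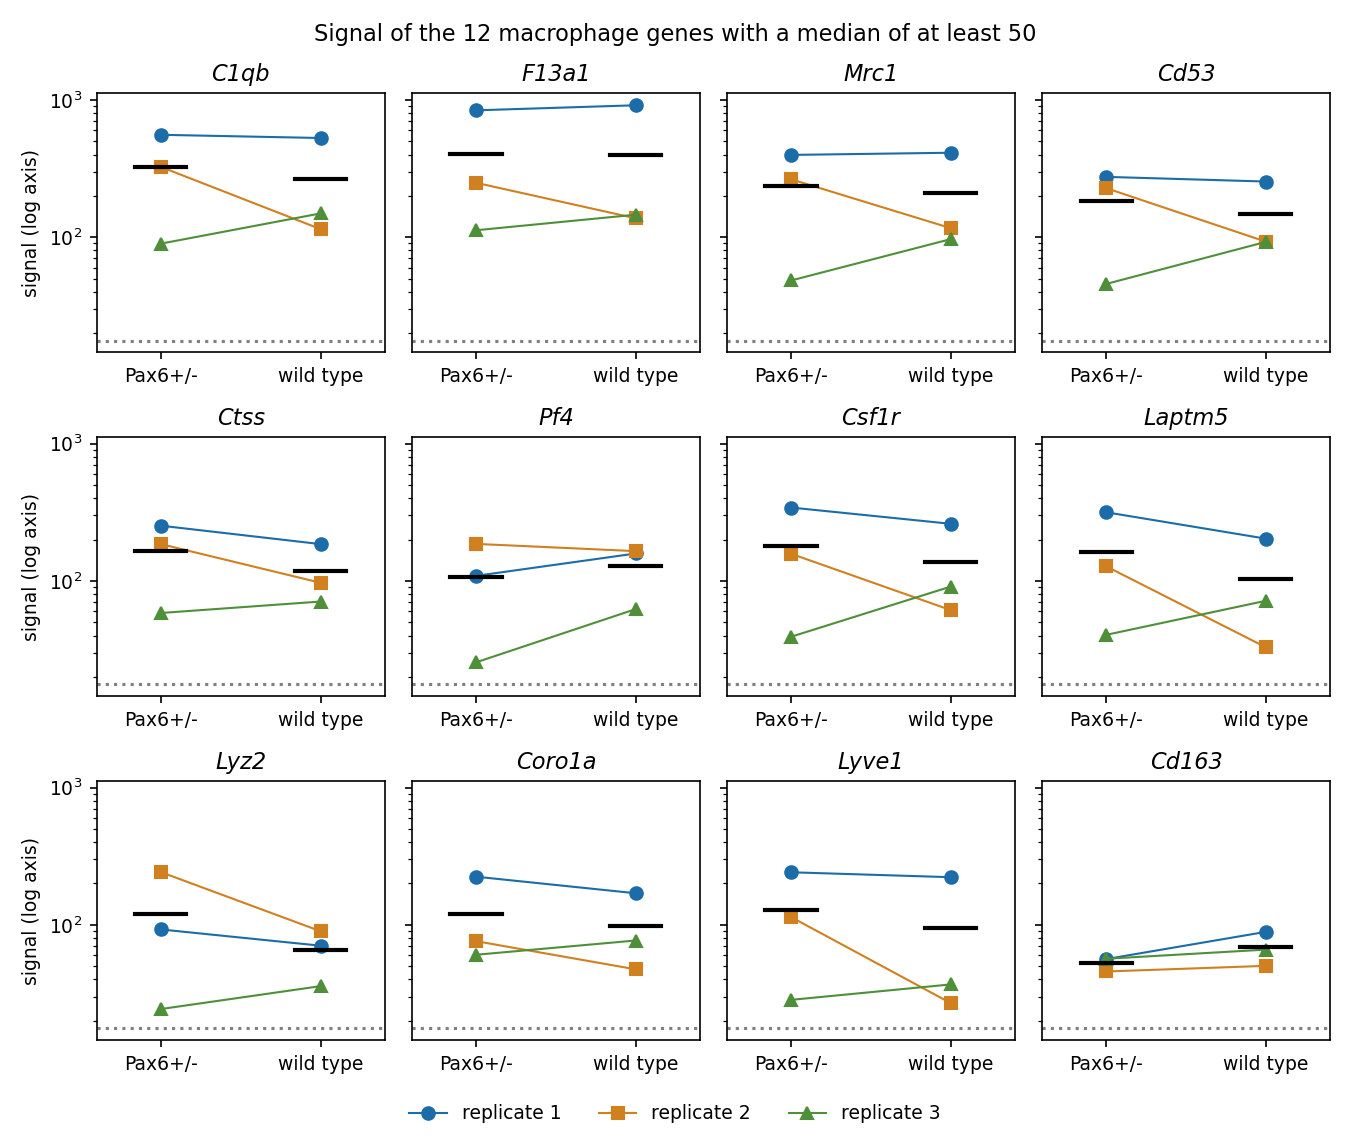
Signal on a log axis of the 12 macrophage genes with a median of at least 50, with Pax6 heterozygous samples to the left of wild-type samples. Points are samples, lines join samples with the same replicate number, black bars are arithmetic means of 3 mice and the dotted line is the olfactory-receptor guide of 17.6. In every panel but those of Cd163, Lyz2 and Pf4 the replicate 1 line lies above the others, and the groups overlap in all 12.

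The genotypes were compared with limma over all 22626 probe sets. None of the 34 macrophage genes passed an adjusted p of 0.05, and neither did any other gene (0 of 12393, 0%). The smallest unadjusted p of the 34 was 0.131, for Cd68 (log2 difference 0.68 ± 0.39, SE), followed by 0.178 for Cybb (−0.17 ± 0.11) and 0.181 for Cd163 (−0.34 ± 0.23). An unadjusted p under 0.05 was reached by 0 of the 34 in either direction, against 139 genes higher in heterozygous lenses (1.12%) and 139 genes lower (1.12%). The methods' t-test, run here on log2 signals, gave 1 of the 34 an unadjusted p under 0.05, against 665 of 22626 probe sets (2.94%), and 0 after adjustment. The paper used that test at a looser threshold, together with template matching. The median log2 difference of the 34 genes was 0.16 and 24 were above 0, against a median of −0.01 and 5823 of 12393 above 0 over all genes. This median was −0.08 without heterozygous replicate 1, −0.09 without both samples of number 2 and 0.82 without heterozygous replicate 3, so its sign depended on which samples were included.

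At the probe sets used, no macrophage gene had all 3 heterozygous values above all 3 wild-type values, against 319 of 12393 genes (2.57%). The reverse was seen for 1 of the 34, Cybb at background, against 433 genes (3.49%). A dimmer probe set of Cx3cr1, also at background with at most 11.1, had all 3 heterozygous values above all 3 wild-type values. The spread within a genotype was large. Over the 12 genes with a median of at least 50 the highest of 3 samples was 1.24 to 9.94 times the lowest in heterozygous lenses and 1.77 to 8.27 times in wild-type lenses, and the standard error of the log2 difference reached 1.03, for Lyve1. A 2-sided exact permutation test of 3 mice against 3 cannot give a p below 0.1.

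The same-numbered samples were then compared as pairs, since deviations from the genotype means were correlated within each same-numbered pair. Over all probe sets the Pearson r was 0.65, 0.73 and 0.60 for numbers 1 to 3. It was 0.64, 0.74 and 0.60 when the macrophage genes were left out. Between samples of different number r was −0.50 to −0.08 over all probe sets. The deviations within a genotype sum to 0, so these values are negative on average once the others are positive, and add no separate support. In the first pair the heterozygous sample was higher for 16 of the 24 macrophage genes above the guide, with a median log2 difference of 0.21. In the second pair it was higher for 23 of 24, with a median of 1.14, Cd163 being the exception. In the third pair it was higher for 6 of 24, with a median of −0.36. Over all 34 macrophage genes the heterozygous sample was higher for 19, 29 and 9 in pairs 1 to 3. Among all 12393 genes it was higher for 5856, 6271 and 5654. For the 12 brighter genes the medians were 0.12, 1.24 and −0.64. At these probe sets all 12 were lower in heterozygous replicate 3 than in wild-type replicate 3. Their further, mostly dimmer probe sets did not all repeat this. The third-pair log2 difference there was 0.06 and −0.16 for Coro1a, 0.08 and −0.32 for Laptm5, and −0.04 and 0.23 for Csf1r. It was −0.14 and −0.57 for C1qb and −0.19 for Lyve1.

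The pair differences of individual genes showed the same turn of sign. Csf1r had log2 differences of 0.39, 1.36 and −1.21 in pairs 1 to 3, and Laptm5 had 0.64, 1.96 and −0.83. C1qb had 0.08, 1.51 and −0.73, and Lyve1 had 0.12, 2.08 and −0.37. Among the 23 genes above the guide that were higher in the second pair, Pf4 differed least there, with −0.54, 0.18 and −1.29. Across all 34 genes, 6 were higher in the heterozygous sample of all 3 pairs, namely Aif1, C1qc, Cd14, Fcgr2b, Fcgr1 and Trem2, against 1785 of 12393 genes (14.4%). The 3 that were lower in all 3 pairs were Cd163, Ccl4 and Cybb, against 2179 genes (17.6%). These were 17.6% and 8.82% of the 34.

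**Figure D3:**
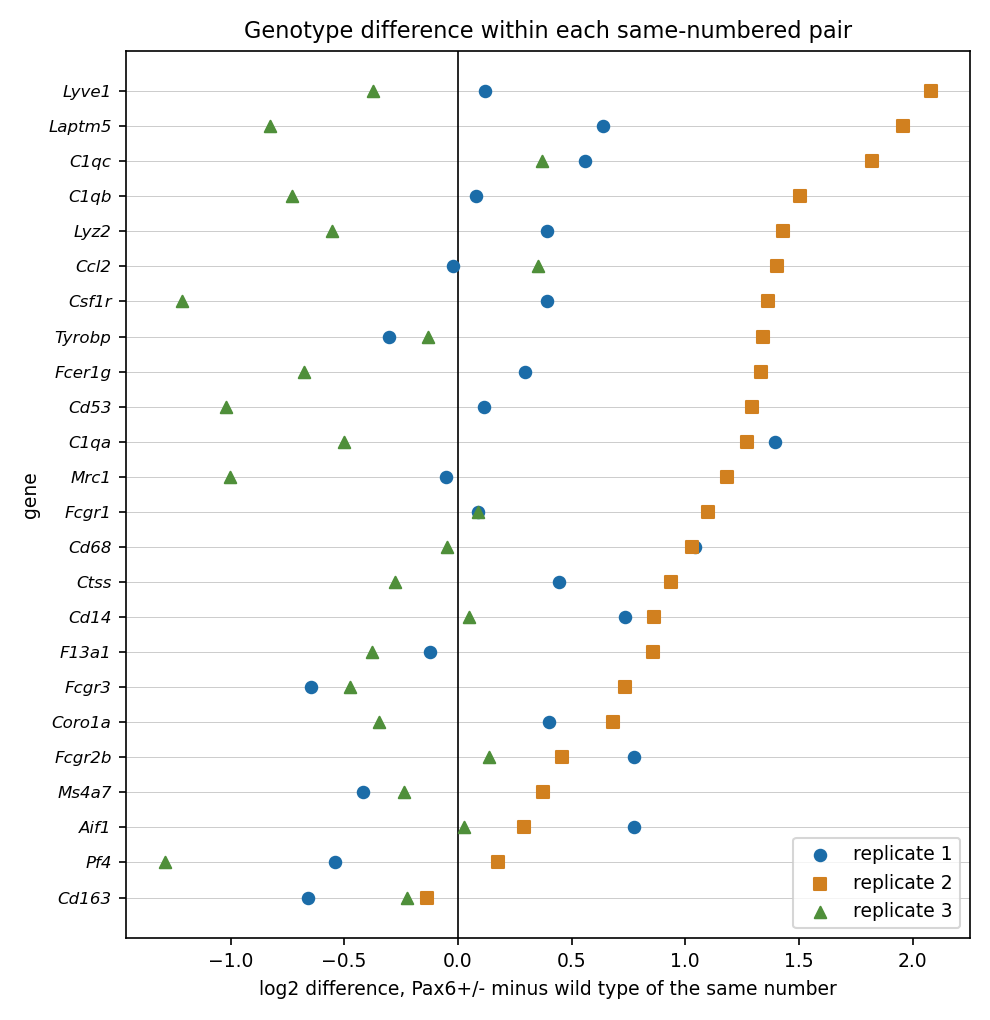
Log2 difference, Pax6 heterozygous minus wild-type sample of the same replicate number, for the 24 macrophage genes above the guide, ordered by the difference in the second pair. Squares of the second pair lie right of 0 for 23 of 24 genes, and triangles of the third pair lie left of 0 for 18 of 24.

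With the replicate number as a block, which removes what same-numbered samples share, no macrophage gene passed an adjusted p of 0.05 (limma, smallest 0.462, for C1qc). An unadjusted p under 0.05 was then reached by 4 of the 34 genes in the higher direction, C1qc, Fcgr2b, Cd14 and Cd68, against 658 of 12393 genes (5.31%). In the lower direction it was reached by Cd163 alone, against 560 genes (4.52%). All 4 of the higher genes had a median signal under 50, and none of the 12 brighter genes was higher at this level at the probe set used. This depended on the probe set for Coro1a. A further one, with a median of 83.0, was higher in the heterozygous sample of all 3 pairs. Its log2 difference was 0.57 (limma with the block, unadjusted p = 0.043, adjusted p = 0.537). Under this block 2 probe sets of the whole array passed the adjusted threshold and neither belongs to a macrophage gene.

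More macrophage genes differed between replicate numbers than between genotypes in either fit, without or with the replicate block, as did genes in general. In a moderated F test of limma over the 3 numbers, with genotype kept in the model, 14 of the 34 genes passed an adjusted p of 0.05, against 2621 of 12393 genes (21.1%), and 24 had an unadjusted p under 0.05, against 4660 genes (37.6%). Among genes with a median signal of at least 50 the counts were 8 of 12 macrophage genes and 1931 of 5549 genes overall (34.8%) by the adjusted p, and 12 of 12 and 3231 of 5549 (58.2%) by the unadjusted p. The 3 smallest adjusted p-values belonged to F13a1 (0.0089), Fcgr2b (0.0104) and Aif1 (0.0145). The others that passed were Coro1a, Cd14, Pf4, Ctss, Tyrobp, Lyz2, Mrc1, Lyve1, C1qc, Fcer1g and C1qb, the last with an adjusted p of 0.0498. Csf1r (0.0629), Laptm5 (0.0699) and Cd53 (0.0711) missed the threshold. Leaving out both samples of a number, an alternative chosen after the data were seen, gave 6 macrophage genes without replicate 1, against 13.2% of all genes. It gave 19 without replicate 2, against 2.99% (370 genes), and 6 without replicate 3, against 13.2%.

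By size, the replicate numbers differed most between 1 and 3. As geometric means over both genotypes, the signal in replicate 1 was 6.85 times that in replicate 3 for F13a1, 7.17 times for Lyve1, 5.92 times for Mrc1, 5.004 times for Csf1r and 4.69 times for C1qb. Over the 34 genes the median log2 difference was 1.20 between replicates 1 and 3, 0.44 between replicates 1 and 2 and 0.64 between replicates 2 and 3, against medians within 0.03 of 0 over all genes. Replicate 3 minus the mean of replicates 1 and 2 had a median of −0.88 on the log2 scale, and 2 of the 34 genes were above 0. The ratio of replicate 1 to replicate 3 over the 24 genes above the guide had a median of 3.86 in heterozygous lenses and 2.32 in wild-type lenses. The ratio of replicate 2 to replicate 3 differed between the genotypes, with a median of 3.17 in heterozygous lenses and 1.07 in wild-type lenses. Wild-type replicate 2 was below wild-type replicate 3 for 11 of the 24 genes.

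The order of replicates 1 and 2 divided the macrophage genes into sets that were alike in both genotypes. Replicate 2 was below replicate 1 in both genotypes for 21 of the 34 genes, against 4672 of 12393 genes (37.7%), and 16 of these were above the guide. The difference exceeded 1 on the log2 scale in both genotypes for F13a1, Coro1a, Laptm5, Csf1r, Lyve1 and Cd14. Replicate 2 was above replicate 1 in both genotypes for 6 of the 34, against 4024 genes (32.5%), and 4 of these were above the guide, namely Lyz2, Ccl2, Pf4 and Cd68. Fcgr1, Fcgr3, Tyrobp and C1qc were higher in replicate 2 of the heterozygous lenses and lower in replicate 2 of the wild-type lenses. Replicate 3 was below replicate 1 in both genotypes for 29 of the 34, against 4049 genes (32.7%), and below replicate 2 in both for 17 of the 34, against 3968 genes (32.0%). Cd163 and Ccl2 were the exceptions among the 24 genes above the guide to the order of replicates 1 and 3.

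**Figure D4:**
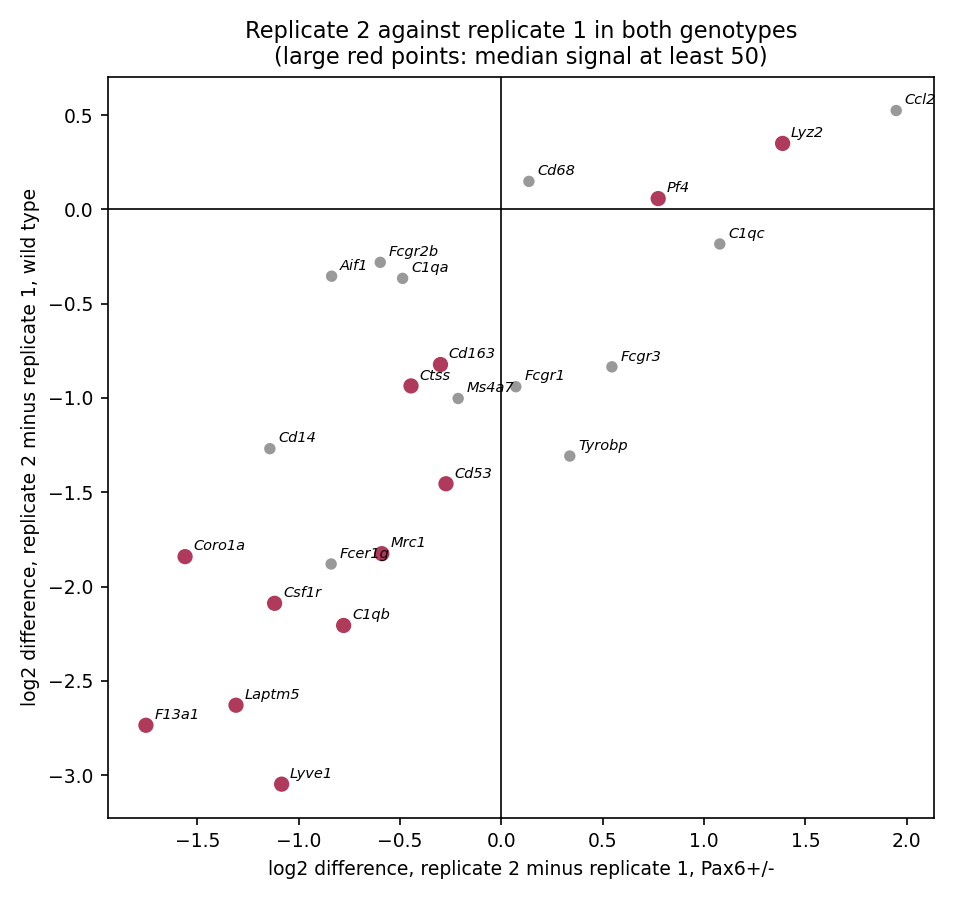
Log2 difference of replicate 2 minus replicate 1 in Pax6 heterozygous lenses (horizontal axis) and in wild-type lenses (vertical axis) for the 24 macrophage genes above the guide. Lyz2, Ccl2, Pf4 and Cd68 lie in the upper right, 16 genes including F13a1, Lyve1 and Csf1r lie in the lower left, and the 12 large red points have a median signal of at least 50.

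Further probe sets of the same genes gave a check on these orders that shares the RNA but not the probe set. A dimmer probe set of Lyve1 read 108, 48.5 and 20.8 in heterozygous replicates 1 to 3 and 80.1, 14.96 and 23.6 in wild-type replicates 1 to 3. A dimmer one of C1qb read 398, 228 and 67.8 in heterozygous lenses and 343, 98.1 and 100 in wild-type lenses. Both repeat the shape of the brighter probe set. A further probe set of Coro1a read 193, 116 and 46.1 in heterozygous lenses and 144, 49.7 and 44.4 in wild-type lenses, and here replicate 3 of the wild-type lenses was the lowest sample rather than replicate 2. Another C1qb probe set, with 41.0, 48.2 and 14.6 in heterozygous and 31.4, 24.8 and 16.2 in wild-type lenses, put heterozygous replicate 2 first. A further probe set of Fcgr2b, with 20.8, 28.4 and 11.04 in heterozygous and 12.1, 13.6 and 10.1 in wild-type lenses, put replicate 2 first in both genotypes. One of Laptm5, with 16.9, 27.4 and 14.6 in heterozygous and 17.5, 14.1 and 13.8 in wild-type lenses, did so in the heterozygous lenses. Both were dim, with at most 28.4. The order of replicates 1 and 2 thus depended on the probe set for C1qb, Fcgr2b and Laptm5. In the probe sets given so far, replicate 3 stayed below replicate 1. A further Csf1r probe set read 70.0, 47.9 and 23.9 in heterozygous and 71.1, 22.8 and 24.5 in wild-type lenses. Another of Csf1r stayed at background, from 10.0 to 15.0. One of Fcgr2b, with at most 12.9, had replicate 3 above replicate 1 in both genotypes.

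Other genes of the macrophage pathways were taken from lists drawn up by function. Of 107 such genes measured, 51 exceeded the guide, 1 had an unadjusted p under 0.05 for a higher value in heterozygous lenses and 0 for a lower one. The one was Tgfb1, a secreted regulator of growth and inflammation, which stayed between 8.72 and 13.2, at background. Between replicate numbers 20 of the 107 passed the adjusted p (18.7%), against 21.1% of all genes. The ligands of the receptor, Csf1 and Il34, never exceeded the guide (highest 16.4 and 10.8), and the same was true of all 6 antigen presentation genes measured, among them Cd74 and Ciita.

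Of the 20 genes of these lists that passed between replicate numbers, 7 were highest in replicate 1 of both genotypes, 12 in replicate 2 of both and 1, Irf5, in replicate 3 of both. Ccl9, a myeloid chemokine, read 79.5, 26.6 and 18.2 in heterozygous replicates 1 to 3 and 68.3, 22.8 and 13.9 in wild-type replicates 1 to 3 (limma, adjusted p = 0.0068). The actin-bundling protein Lcp1 read 1468, 346 and 163 in heterozygous lenses and 647, 209 and 132 in wild-type lenses (adjusted p = 0.0071). Both were highest in replicate 1, like F13a1. Ccl12, a chemokine close in sequence to Ccl2, read 56.8, 151 and 13.8 in heterozygous lenses and 73.7, 88.0 and 22.5 in wild-type lenses. Cyba, the membrane partner of Cybb in the NADPH oxidase, read 97.4, 236 and 57.0 in heterozygous lenses and 126, 148 and 46.7 in wild-type lenses. The lysosomal protease Lgmn read 28.5, 96.8 and 17.0 in heterozygous lenses and 39.2, 81.9 and 27.3 in wild-type lenses. These 3 were highest in replicate 2 of both genotypes, like Lyz2. Replicate 3 was not the lowest in all 20. Irf5, a transcription factor of inflammatory macrophages, read 230, 166 and 254 in heterozygous lenses and 249, 191 and 296 in wild-type lenses, and the protease Ctsd, named here after its values were seen, read 833, 1612 and 909 in heterozygous lenses and 870, 1673 and 1118 in wild-type lenses. Of the lysosomal protease and lipid genes as a list, which other cells also express, 10 of 15 passed between replicate numbers.

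Markers of other cells moved with the replicate numbers too. Of 19 endothelial genes 15 passed the adjusted p between replicate numbers, and of 10 pericyte genes 7 did, against 21.1% of all genes, with summed signals over the endothelial genes of 4238, 1409 and 1274 in heterozygous replicates 1 to 3 and 2352, 1173 and 1008 in wild-type replicates 1 to 3. Like the macrophage genes these were highest in replicate 1. In the third pair they went the other way, since 13 of 17 endothelial genes above the guide and 7 of 7 pericyte genes were higher in heterozygous replicate 3 than in wild-type replicate 3, against 6 of 24 macrophage genes, and this contrast itself was not tested. Cell division genes were highest in replicate 1 as well, all 14 being above the mean of the other numbers, and 8 of the 14 passed. In the second pair, where 23 of 24 macrophage genes were higher in the heterozygous sample, so were 14 of 14 cell division genes (median log2 difference 1.22) and 17 of 18 neural retina genes (0.62). Over all genes 50.6% were higher there. Of 9 pigment cell genes 5 passed and 8 were higher in replicate 1 than in the mean of the others. Mesenchyme had 6 of 18 genes past the threshold, the lens list 5 of 17 and neural retina 2 of 18. What part these cells have in the macrophage values was not tested.

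Most of the genes listed for other blood cells never exceeded the guide. Of 11 lymphocyte genes 1 exceeded the guide, Cd3g, at 20.8 in heterozygous replicate 3, where the macrophage genes were lowest. Among 10 neutrophil genes Ltf, S100a8 and S100a9 exceeded it, with a highest value of 57.1, while the granule genes Mpo, Prtn3, Camp and Ngp did not. Of 8 mast cell genes 2 exceeded it, with a highest value of 19.6, and of 7 red cell genes 1, Alas2, at up to 25.4.

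**Figure D5:**
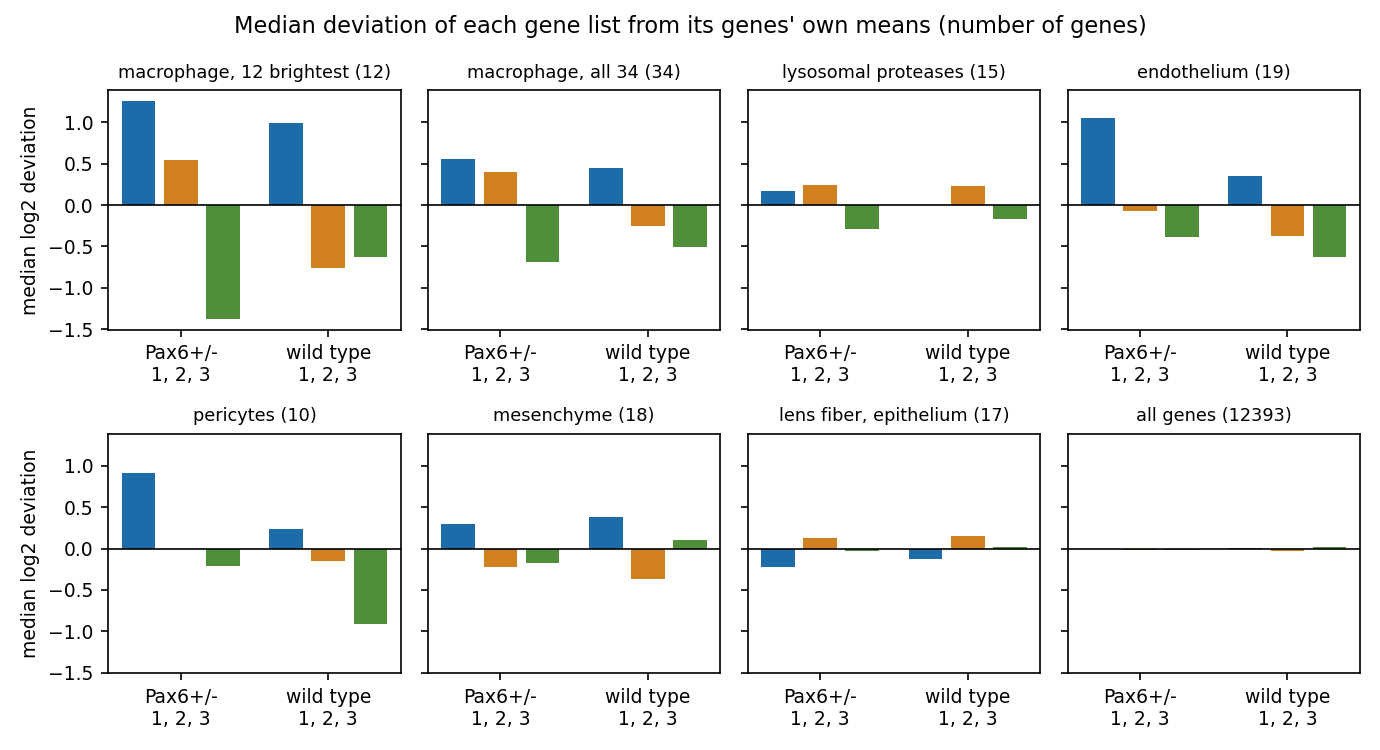
Median over the genes of each list of the log2 signal minus the gene's own mean over the 6 samples, for Pax6 heterozygous replicates 1 to 3 (left bars) and wild-type replicates 1 to 3 (right bars), with blue, orange and green for replicates 1, 2 and 3 and the number of genes in brackets. The 12 brighter macrophage genes lie at 1.25, 0.55 and −1.37 in heterozygous and 0.99, −0.76 and −0.63 in wild-type lenses, while the median over all genes stays within 0.03 of 0.

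The genes most like the macrophage genes were sought among genes with a median signal of at least 50. Their log2 signal was correlated (Pearson) over the 6 samples with the mean log2 signal of all 34 macrophage genes. Of these 34, 10 never exceeded the guide. The correlation is a description over few samples that share replicate numbers, and each of the 12 brighter macrophage genes is part of the mean it is set against. Ctss (r = 0.99), Cd53 (0.99), Mrc1 (0.98), C1qb (0.97), Csf1r (0.96), Lyve1 (0.96) and Laptm5 (0.91) were above 0.9, and so were 58 of 5537 other genes (1.05%). F13a1 (0.90), Coro1a (0.80), Lyz2 (0.72) and Pf4 (0.72) followed, and Cd163 (0.15) stood apart. Outside the macrophage genes the 8 closest were Ptgr1, Dynlt1f, Btbd2, Myef2, Ddx39b, Nme7, Manba and Ms4a6d, with r from 0.97 to 0.99. Ms4a6d, a relative of Ms4a7 found in myeloid cells, read 89.2, 65.6 and 37.0 in heterozygous replicates 1 to 3 and 89.9, 43.9 and 37.7 in wild-type replicates 1 to 3. Most of the others varied far less in size, as Myef2 did with 632, 613 and 498 in heterozygous lenses and 626, 559 and 524 in wild-type lenses.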

How the data were processed

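RNA of 6 lens samples was measured on Affymetrix mouse arrays. Per the study's methods, total RNA was amplified with the NuGEN Ovation system, and the deposited intensity of each probe set is the output of the authors' RMA step (robust multichip average, version not given in the sources used here). That step subtracts background, brings the arrays to a common distribution and summarises probes, and it shrinks ratios between dim samples. The linear values were turned into log2 and not scaled again. Of 22690 probe sets, 64 manufacturer controls were left out. The platform annotation gave 20380 probe sets a single gene, 691 several and 1555 none, and 20351 were matched to RefSeq by Entrez number. Genes are described at their probe set of highest mean log2 signal, while p-values were adjusted (Benjamini-Hochberg) over all 22626 probe sets.

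Genotypes were compared with limma 3.58.1 (lmFit, eBayes) in R 4.3.3 without a block, replicate numbers by a moderated F test with genotype as covariate, at a threshold of 0.05. All same-numbered pairs correlated above 0.1 in their deviations from the genotype means, so the numbers were taken to pair the samples, and the replicate block was run as an alternative. Where nothing says that a number marks a shared litter or day, the pairing rests on these correlations. The script was tested on simulated signals first. Every macrophage gene was named. Values per sample were given for those with a median signal of at least 50 and for the 3 with the smallest p between genotypes and between replicate numbers. From each pathway list at most 2 genes by p were named, and the 8 genes of most similar pattern. The members and lists were chosen with earlier results of these data known. Alternatives were quantile normalization, median centring, filters at a median signal of 50 and 100, the mean of all probe sets, other tests, and leaving out samples.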

Additional observations from a re-analysis of the deposited data

How the results depend on the processing

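Between genotypes, 0 probe sets passed the adjusted threshold under every alternative but the replicate block, which gave 2. Macrophage genes with an unadjusted p under 0.05 numbered 0 in the main comparison, against 450 of 22626 probe sets. They numbered 1 with the methods' t-test on log2 values (665 probe sets) and 1 with the same test of linear signals (647 probe sets). With the replicate block they numbered 5 (2042 probe sets). When samples were left out they numbered from 0 to 3 (312 to 598 probe sets). The median log2 difference of the macrophage genes ranged from −0.087 (without number 2) to 0.82 (without heterozygous replicate 3) over these omissions. The other alternatives left both results on the same side.

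At the probe sets used, genes higher in all same-numbered pairs numbered 0 under filters at a median of 50 or 100, which keep 12 and 7 of the 34 genes. At a median of 50 this held for 870 of 5549 genes overall (15.7%). With a pair left out the number was from 6 to 19, highest without the third pair. The share over all genes was not computed for these omissions. Between replicate numbers, the filters at 50 and 100 gave 9 and 7 genes past the adjusted threshold (against 49.9% and 55.3% of all genes kept). Leaving out a number gave 6 to 19 (against 2.99% to 13.2% of all genes). An unadjusted p under 0.05 was reached by 12 and 7 genes under the filters and by 13 to 23 with a number left out. For these unadjusted counts the share over all genes was not computed. The median of replicate 3 minus replicates 1 and 2 was −1.56 and −1.59 under the filters, which leave the brighter genes.

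Array weights turned the sign of the genotype difference for Csf1r (−0.076), Mrc1 (−0.21), Cd53 (−0.11) and F13a1 (−0.10), none past the threshold, and the cause was not tested. Leaving out samples gave −0.53 to 1.04 for Csf1r, −0.081 to 0.84 for Aif1, −0.56 to 0.96 for Mrc1, −0.36 to 1.30 for Lyz2, −0.33 to 1.03 for C1qb, −0.058 to 1.00 for Ctss, −0.12 to 1.36 for Laptm5, −0.45 to 0.95 for Cd53, −0.66 to 1.02 for F13a1, −1.16 to 0.27 for Pf4, −0.13 to 1.55 for Lyve1 and −0.33 to 0.74 for Coro1a. Cd68 and Fcgr2b stayed above 0 and Cd163 and Cybb below 0. With 3 mice per genotype and signals near background for 10 of the 34 genes, differences of these genes could be hidden by background.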
